A study of Mus musculus with 28 samples.

Results

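The NFATc3 by ASK1 interaction was measured in whole mouse liver, as the part of the double knockout's expression that the single knockouts do not add up to. It used 16 of the 28 samples of the series, all of them livers from male mice that were 8 weeks old when a methionine- and choline-deficient diet was begun and that ate it for 4 weeks. This diet blocks phosphatidylcholine synthesis and is a standard way to bring on steatohepatitis in mice. The 4 genotypes had 4 livers each. Lyz2-Cre livers were the controls. NFATc3-MKO and ASK1-MKO livers are labelled as macrophage knockouts of NFATc3 and of ASK1, and MDKO livers as the double knockout of both, without naming the cell type. The Lyz2-Cre driver acts in macrophages, monocytes and neutrophils, which give a small share of liver RNA, so in the macrophage knockouts most of the RNA measured came from cells in which neither gene was targeted. The labels do not say whether the mice of the 3 knockout groups carried the same Cre allele, whether controls were littermates, or at what time of day livers were taken. Group names below stand for those labels.

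NFATc3 is one of the calcium-regulated NFAT transcription factors. Calcineurin, a phosphatase, removes phosphates from it and lets it enter the nucleus, and Rcan1, an inhibitor of calcineurin, is among the classic NFAT target genes. ASK1, encoded by Map3k5, is a MAP kinase kinase kinase held inactive by thioredoxin and released by oxidative stress. It acts through Map2k3, Map2k4, Map2k6 and Map2k7 on the p38 and JNK kinases.

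The interaction of a gene was computed on the log2 scale as the MDKO change from NFATc3-MKO minus the change of ASK1-MKO from the Lyz2-Cre controls. A value of 0 means that the changes in the single knockouts multiply together in the double knockout. A positive value means that the MDKO level lay above that product and a negative value that it lay below. A gene was called at an adjusted p under 0.05 in edgeR's quasi-likelihood test over 13309 genes. Levels are CPM, counts scaled to the library total, given as mean ± SD over 4 livers, and interactions as log2 ± SE. The labels name the livers by number without saying that each came from its own mouse, so p-values measure the spread between these samples.

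The likeness of the MDKO and Lyz2-Cre libraries has to be stated before any result. In each of the 4 MDKO libraries, the library closest by correlation of log2 CPM was the Lyz2-Cre library with the same replicate number, at r of 0.989, 0.991, 0.987 and 0.991, while the closest MDKO library stood at 0.976 to 0.988. The chi-square per degree of freedom between 2 libraries, which is 1 for counting noise, was 13.7, 8.96, 2.29 and 7.62 for the same-numbered Lyz2-Cre and MDKO libraries. It ran from 11.1 to 138 between livers of one group. The same-numbered pairs thus differed by more than counting noise but, for 3 of the 4, by less than any pair of livers within a group. The measure grows with depth, and MDKO replicate 3 held 8912117 counts against at least 20601168 in every other library. It was part of both the 2.29 pair and the 11.1 pair. Without that library, the lowest value within a group was 16.1, above all same-numbered Lyz2-Cre and MDKO pairs. The match was not wholly by number. Lyz2-Cre replicate 3 and MDKO replicate 4 stood at 15.85, and MDKO replicate 4 was the library closest to Lyz2-Cre replicate 3 (r of 0.9892). The same-numbered pairs were kept as separate samples because none agreed within sampling noise, which does not show that they came from separate mice. What the libraries share was not tested, and the labels give no link between them. Should a pair share material or reads, or an MDKO library not hold what its label says, the interactions and p-values below would not measure the double knockout. Every p below treats the 16 libraries as separate samples. A fit with the same-numbered Lyz2-Cre and MDKO livers as a block is quoted where it changed a call. Both groups enter the interaction with the same sign, so variation shared by a pair adds up in it. The block takes that variation out of the spread, so it cannot show that the pairs are independent. Where pairs share variation, the p-values of both fits can be too small.

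**Figure D1:**
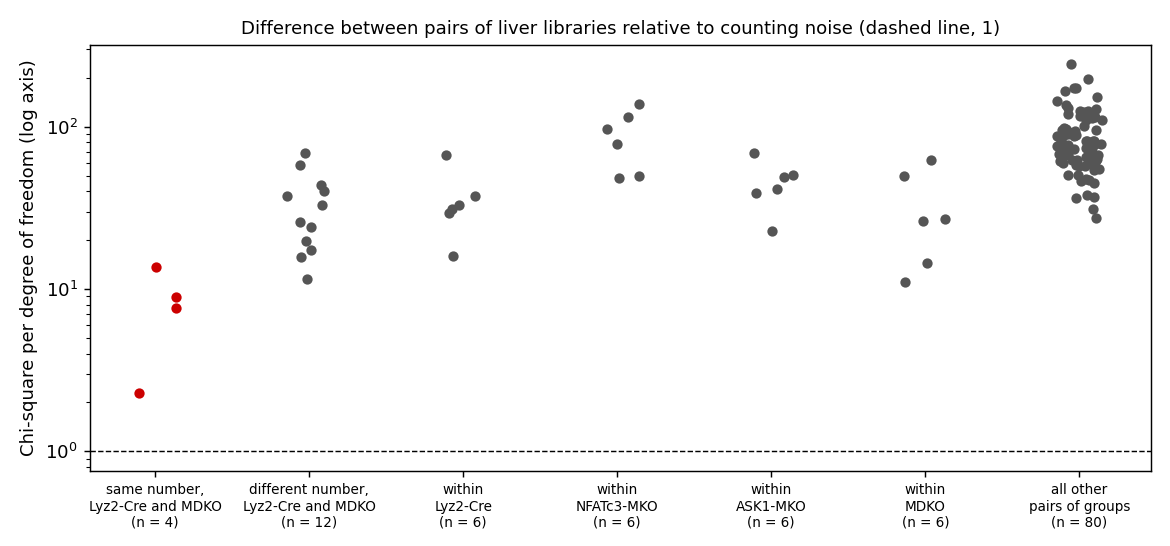
Chi-square per degree of freedom (log axis) between pairs of liver libraries, 1 point per pair, by kind of pair, with counting noise at the dashed line. The 4 same-numbered pairs of Lyz2-Cre and MDKO livers (red) sit between 2.29 and 13.7, and no pair of Lyz2-Cre livers is below 16.1.

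Transcripts of the targeted genes did not mark the double knockout. Nfatc3 (chr8:106058818-106130537 in GRCm38.p6, the build called mm10) stood at 30.6, 37.1, 39.8 and 37.6 CPM in Lyz2-Cre livers 1 to 4, at 31.5, 31.1, 19.6 and 30.9 in NFATc3-MKO, at 38.0, 37.3, 37.8 and 36.4 in ASK1-MKO and at 29.8, 37.5, 39.8 and 39.1 in MDKO livers. Its lowest liver was an NFATc3-MKO liver, the MDKO livers spanned the controls, and its interaction of 0.33 ± 0.20 was not called (edgeR adjusted p = 0.293). Nfatc3 overlaps Esrp2 on the genome, and the strand setting of the counting is not given in the sources used here. Map3k5 (chr10:19934101-20142750) stood at 32.7, 31.8, 27.7 and 31.3 CPM in Lyz2-Cre, 43.9, 27.4, 24.1 and 29.5 in NFATc3-MKO, 41.7, 55.1, 45.4 and 42.8 in ASK1-MKO and 28.2, 32.3, 29.3 and 32.4 in MDKO livers. The ASK1-MKO livers were all above the controls for the gene that encodes ASK1, as was NFATc3-MKO replicate 1, and MDKO livers lay among the controls. Its interaction was -0.61 ± 0.22 (edgeR adjusted p = 0.0644; 0.0441 by DESeq2 and 0.0199 by limma's voom). Where deletion is limited to a minor cell type, levels in whole liver do not check the labels.

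Non-additive behaviour was common. The interaction was called in 2153 of 13309 genes (16.2%), of which 1088 (8.17%) were positive and 1065 (8%) negative. Its size was at least 1 on the log2 scale in 552 positive and 454 negative genes, and at least 2 in 104 and 84. When each library was left out in turn, 678 positive and 673 negative genes were called in all 16 fits, and the number called ran from 1512 without Lyz2-Cre replicate 3 to 2291 without NFATc3-MKO replicate 3.

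In their medians these genes had one form: a change from the controls in the single knockouts and none of that size in the MDKO livers. The single and double knockouts share their controls, so the values are given side by side. In the positive genes the median change from Lyz2-Cre was -0.56 in NFATc3-MKO, -0.46 in ASK1-MKO and -0.002 in MDKO livers, against a median interaction of 1.01. In the negative genes it was 0.42, 0.51 and -0.006, against an interaction of -0.92. By edgeR's test of each single contrast, 1124 genes (8.45%) differed from Lyz2-Cre in NFATc3-MKO, 1126 (8.46%) in ASK1-MKO and 0 (0%) in MDKO livers. In MDKO livers 35 genes (0.263%) had an unadjusted p under 0.05 by that test, where chance alone gives about 1 in 20. This unpaired test thus gave too few small p-values for MDKO, and a paired one was not run. The 0 calls do not show that MDKO livers equalled the controls. Among the positive genes 493 were lower and 4 higher in NFATc3-MKO, and 371 were lower and 0 higher in ASK1-MKO. Of the negative genes, 334 were higher and 0 lower in NFATc3-MKO, and 474 were higher and 0 lower in ASK1-MKO. The MDKO mean lay within the range of the 4 controls in 91.6% of all genes tested, and the NFATc3-MKO and ASK1-MKO means in 50.9% and 54.5%. A called interaction in these livers therefore equals, but for a small MDKO term, the summed single changes with the sign turned.

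**Figure D2:**
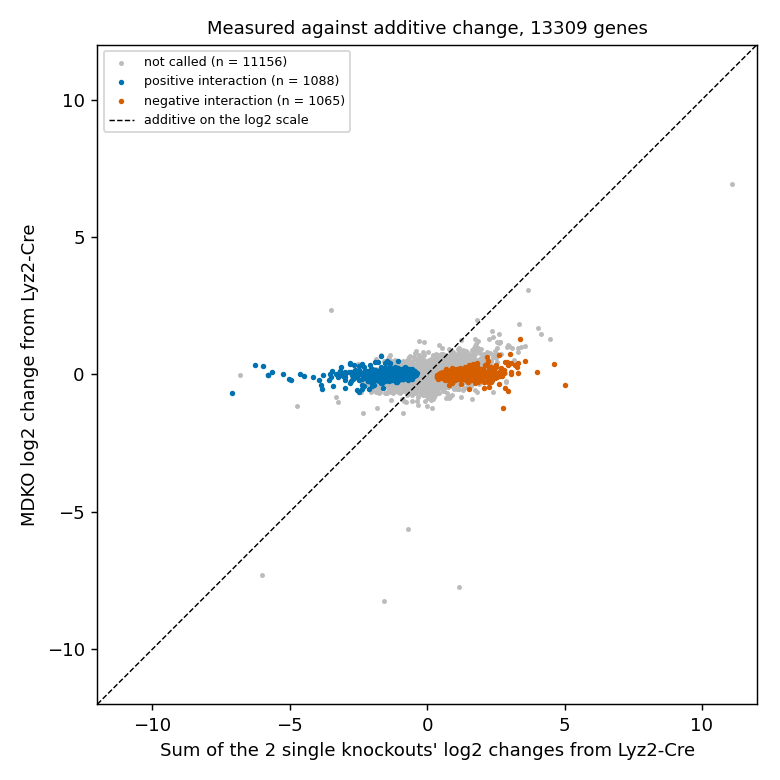
The MDKO change from Lyz2-Cre (y axis, log2) against the sum of the single knockouts' changes (x axis, log2) for 13309 genes, with the dashed diagonal marking additive genes. The 1088 positive genes (blue) lie to the left and the 1065 negative genes (orange) to the right, both along the horizontal where MDKO equals Lyz2-Cre.

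A stricter description uses single livers. All 8 Lyz2-Cre and MDKO livers stood above all 8 single-knockout livers in 161 genes (1.21%), and below them in 168 (1.26%). Of these, 161 and 167 were called. Genes of this kind are described below as having groups that did not overlap.

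The genes next to the targeted ones come first. Of 16 genes for NFAT factors, calcineurin and its regulators, 3 were positive and 1 negative, with a median interaction of -0.04, against 8.17% and 8% called and a median of -0.005 over all genes. The count was 7 called without NFATc3-MKO replicate 3. Rcan1 (chr16:92391951-92466169) stood at 50.3, 47.5, 88.7 and 55.9 CPM in Lyz2-Cre, 16.5, 23.1, 18.2 and 23.1 in NFATc3-MKO, 20.2, 26.0, 34.2 and 39.3 in ASK1-MKO and 50.6, 51.5, 72.7 and 54.9 in MDKO livers. The controls and the double knockouts were high, both single knockouts low, and the 2 kinds did not overlap. Adding the single changes gives 9.99 CPM for MDKO against the 57.4 ± 10.3 measured, an interaction of 2.52 ± 0.31 (edgeR adjusted p = 0.000139). Ppp3ca, a catalytic subunit of calcineurin, was the negative gene, at 34.2 ± 4.04 CPM in Lyz2-Cre, 50.5 ± 11.8 in NFATc3-MKO, 46.5 ± 2.85 in ASK1-MKO and 35.1 ± 4.23 in MDKO livers (-0.96 ± 0.20, edgeR adjusted p = 0.00448), also with no overlap. Rcan2, the related inhibitor, was low in NFATc3-MKO livers alone of the 4 means, at 1.71 CPM against 4.53, 5.36 and 5.38 in Lyz2-Cre, ASK1-MKO and MDKO (1.39 ± 0.35, edgeR adjusted p = 0.0124). Cabin1, which encodes a calcineurin-binding protein, had a smaller value of 0.62 ± 0.18, and its call was lost in 7 of the 16 fits with 1 library left out, at an adjusted p of up to 0.0689 without ASK1-MKO replicate 3.

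Of 22 genes for ASK1 and the stress-activated kinases, 3 were positive and 4 negative (median -0.10), against 8.17% and 8% of all genes. Txnip, which encodes the inhibitor of thioredoxin, was the largest negative one. It stood at 67.3, 104, 97.3 and 88.4 CPM in Lyz2-Cre, 325, 158, 176 and 168 in NFATc3-MKO, 408, 264, 184 and 137 in ASK1-MKO and 77.0, 111, 88.8 and 92.0 in MDKO livers. Every single-knockout liver was above every control and double-knockout liver, and the interaction was -2.64 ± 0.41 (edgeR adjusted p = 0.000565). Map2k7, which encodes a kinase that acts on JNK, had the same form at a smaller size (-0.77 ± 0.14, edgeR adjusted p = 0.00124). Its means were 17.0, 20.7, 24.0 and 17.1 CPM in Lyz2-Cre, then NFATc3-MKO, ASK1-MKO and MDKO. Mapk8, which encodes JNK1, and Atf2, a transcription factor that p38 and JNK phosphorylate, were also negative, at -0.75 ± 0.20 and -0.74 ± 0.20. Mapk14, which encodes p38 alpha, went the other way, at 0.79 ± 0.19 with means of 88.4, 58.9, 74.6 and 85.9 CPM. Dusp10, a phosphatase of JNK and p38, was positive at 1.46 ± 0.35, and Jun, the JNK substrate, at 1.51 ± 0.36, with means of 61.0, 34.6, 39.7 and 64.4 CPM. The members thus did not share a direction.

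**Figure D3:**
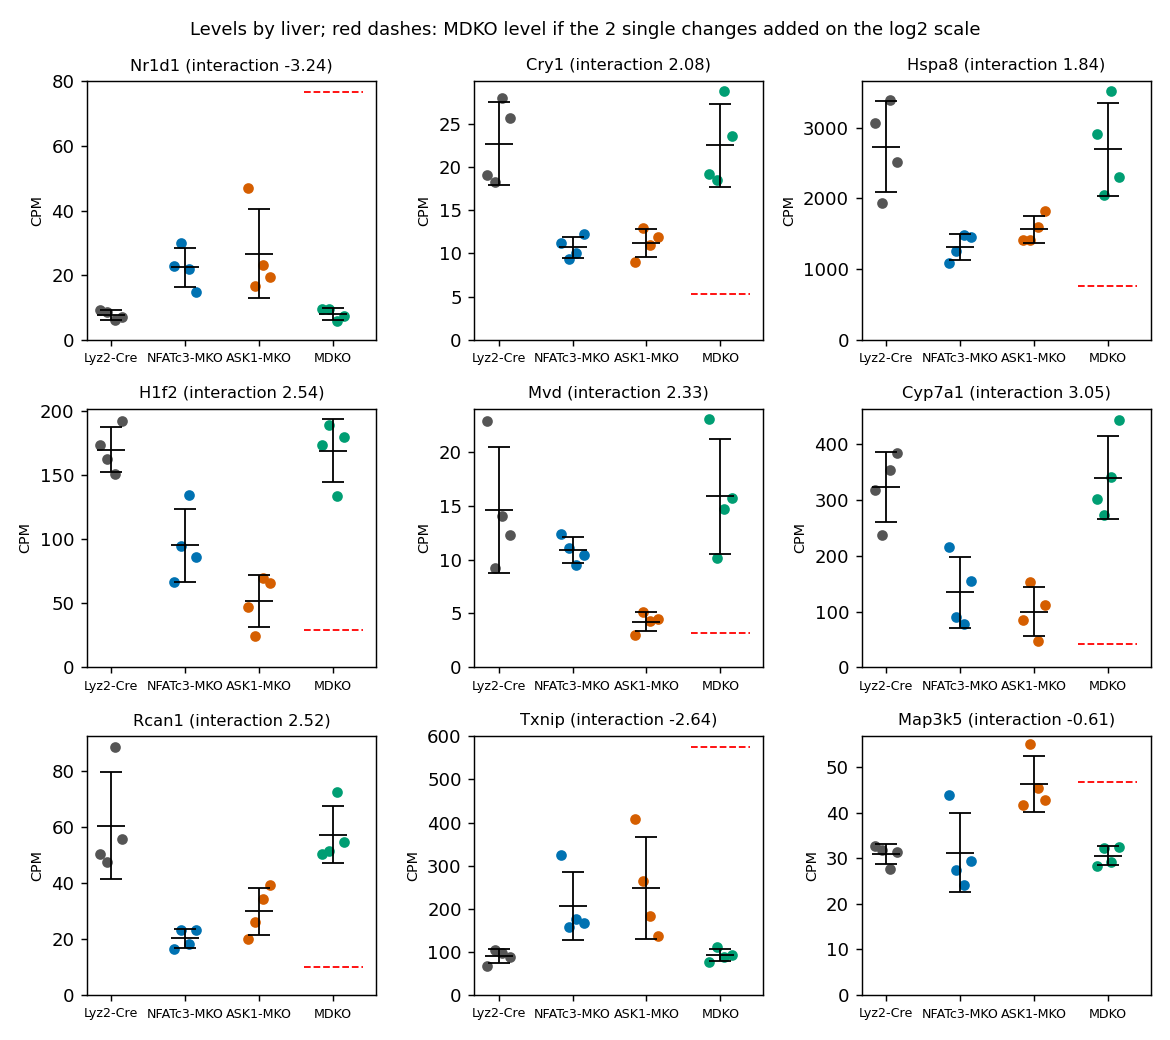
Levels of 9 genes in each of the 16 livers (points, CPM), with the mean and SD of each group (black) and the MDKO level that adding the single changes on the log2 scale would give (red dashes). In the 8 called genes the MDKO points lie among the Lyz2-Cre points and away from the red dashes; for Map3k5 the interaction was not called.

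The circadian clock was the list with the highest share of called genes. The clock is a loop in which BMAL1 and CLOCK switch on genes with E-boxes, among them the Per and Cry genes whose proteins then repress them. REV-ERB proteins, from Nr1d1 and Nr1d2, repress and ROR proteins activate Bmal1 through the RORE element, and DBP, TEF and HLF act with their antagonist NFIL3 on D-boxes. Of 19 genes tested, 6 were positive and 9 negative, against 8.17% and 8% of all genes. The median was -0.44. When each library was left out in turn, 14 or 15 genes were called.

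The start regions of 5 called clock genes are shown because they hold matches to the patterns given below. Each is the 250 bases before an annotated start in RefSeq (GRCm38.p6), printed 5′ to 3′ on the gene's strand. Capitals mark exact matches, on either strand, to the E-box CACGTG, the D-box TTANGTAA or the loose RORE pattern TNGGTCA, and no matches overlapped. The loose pattern takes any base at N, where the RORE has A or G. Its matches shown here have T or C at that base, so they are not full RORE cores.
Bmal1, listed in RefSeq as Arntl, chr7:113207215-113207464, plus strand: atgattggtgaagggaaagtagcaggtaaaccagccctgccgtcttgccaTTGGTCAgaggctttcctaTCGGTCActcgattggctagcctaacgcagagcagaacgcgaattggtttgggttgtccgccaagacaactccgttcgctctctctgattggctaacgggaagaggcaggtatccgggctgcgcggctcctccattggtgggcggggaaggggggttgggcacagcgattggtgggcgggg
Cry1, chr10:85185055-85185304, minus strand: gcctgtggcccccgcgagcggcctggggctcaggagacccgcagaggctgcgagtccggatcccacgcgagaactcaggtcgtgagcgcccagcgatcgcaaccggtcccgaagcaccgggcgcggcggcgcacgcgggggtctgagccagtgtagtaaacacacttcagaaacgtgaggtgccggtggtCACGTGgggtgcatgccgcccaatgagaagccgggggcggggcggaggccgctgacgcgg
Per1, chr11:69098699-69098948, plus strand: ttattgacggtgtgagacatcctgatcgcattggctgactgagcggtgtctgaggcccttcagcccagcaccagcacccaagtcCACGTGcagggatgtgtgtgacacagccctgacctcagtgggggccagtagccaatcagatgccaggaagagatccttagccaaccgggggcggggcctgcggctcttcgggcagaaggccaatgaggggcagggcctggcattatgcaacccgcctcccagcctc
Ciart, chr3:95882229-95882478, minus strand: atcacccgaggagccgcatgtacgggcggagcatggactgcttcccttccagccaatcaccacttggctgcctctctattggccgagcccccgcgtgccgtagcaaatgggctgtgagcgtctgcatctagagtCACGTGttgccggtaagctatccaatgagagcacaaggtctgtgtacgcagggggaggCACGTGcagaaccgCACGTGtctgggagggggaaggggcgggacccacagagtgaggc
Per3, chr4:151044666-151044915, minus strand: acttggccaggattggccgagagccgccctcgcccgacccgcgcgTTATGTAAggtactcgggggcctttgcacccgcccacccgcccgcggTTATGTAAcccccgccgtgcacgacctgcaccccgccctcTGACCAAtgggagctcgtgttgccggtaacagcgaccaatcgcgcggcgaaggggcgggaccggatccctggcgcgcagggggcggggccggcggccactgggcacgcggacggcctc
In the windows shown, Bmal1 had 2 matches to the loose RORE pattern, Cry1 and Per1 had 1 E-box each, and Ciart had 3 E-boxes. Per3 had 2 D-boxes and 1 match to the loose RORE pattern. Another annotated start of Per1 (window chr11:69099902-69100151) held no match. Over 32851 such windows, 6.02% held the E-box, 2.06% the D-box and 9.19% the loose RORE pattern. Windows were at hand for 12 of the 15 called clock genes, 3 positive and 9 negative. An E-box was in 1 of the 3 and 4 of the 9, a D-box in 0 and 1, and the loose RORE pattern in 2 and 3. A gene was counted if any of its windows matched, whereas the shares over all windows count each window singly. A match describes the letters of the window and not a site in use.

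Bmal1, the first activator, stood at 1.17, 1.95, 5.38 and 2.32 CPM in Lyz2-Cre, 0.773, 1.59, 0.555 and 0.534 in NFATc3-MKO, 0.945, 0.800, 0.884 and 0.316 in ASK1-MKO and 1.39, 1.31, 5.18 and 2.75 in MDKO livers. All 4 ASK1-MKO livers were below all controls, while NFATc3-MKO replicate 2 was above 1 of them. Replicate 3 was the high one in both Lyz2-Cre and MDKO. The interaction was 3.40 ± 0.75 (edgeR adjusted p = 0.00604). Clock and Npas2, its partners, were not called. Cry1, a repressor, stood at 19.0, 18.3, 28.0 and 25.6 CPM in Lyz2-Cre, 11.2, 9.38, 10.0 and 12.2 in NFATc3-MKO, 9.00, 12.9, 11.0 and 11.9 in ASK1-MKO and 19.2, 18.5, 28.8 and 23.6 in MDKO livers. The single knockouts were low with no overlap, and the interaction was 2.08 ± 0.24 (edgeR adjusted p = 9.91e-05). Per2, another repressor, was positive too (1.32 ± 0.19), with means of 42.5, 28.4, 26.1 and 43.6 CPM and no overlap.

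The RORE and D-box factors took both directions. Nr1d1 stood at 9.29, 8.63, 6.08 and 6.91 CPM in Lyz2-Cre, 23.0, 29.9, 22.0 and 14.8 in NFATc3-MKO, 46.8, 16.8, 23.2 and 19.4 in ASK1-MKO and 9.39, 9.58, 5.64 and 7.33 in MDKO livers. Its single knockouts were high in every liver, and the measured 7.98 CPM of MDKO compare with 76.6 from adding them, an interaction of -3.24 ± 0.41 (edgeR adjusted p = 0.000153). It overlaps Thra at its end, as Dbp does Sphk2 and Per3 does Uts2, with strand handling of the counts not given. Nr1d2, at -2.31 ± 0.24 with means of 58.7, 102, 168 and 58.8 CPM, had one of the smallest adjusted p of all genes (5.96e-05, edgeR).

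Dbp and Tef were negative, at -2.44 ± 0.44 and -1.03 ± 0.24, and Hlf was not called. Nfil3, their antagonist, was positive at 3.02 ± 0.54, with means of 20.0, 5.20, 9.63 and 20.5 CPM. Per1 (-1.49 ± 0.19), Per3 (-1.67 ± 0.30), Ciart, a repressor of CLOCK and BMAL1 (-1.16 ± 0.29), and Cry2 (-0.73 ± 0.23) were negative, unlike Per2 and Cry1. The call of Cry2 was lost in 10 of 16 left-out fits, at an adjusted p of up to 0.079 without ASK1-MKO replicate 1. Bhlhe41 and Bhlhe40, which also repress CLOCK and BMAL1, took opposite directions, at -2.52 ± 0.61 and 0.90 ± 0.24. Bhlhe41 was highest in NFATc3-MKO, with means of 2.63, 9.58, 4.45 and 2.74 CPM. In all 15 genes the MDKO mean was nearer the Lyz2-Cre mean than to the additive level. Time of collection is not in the labels, so it and genotype cannot be told apart here.

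**Figure D4:**
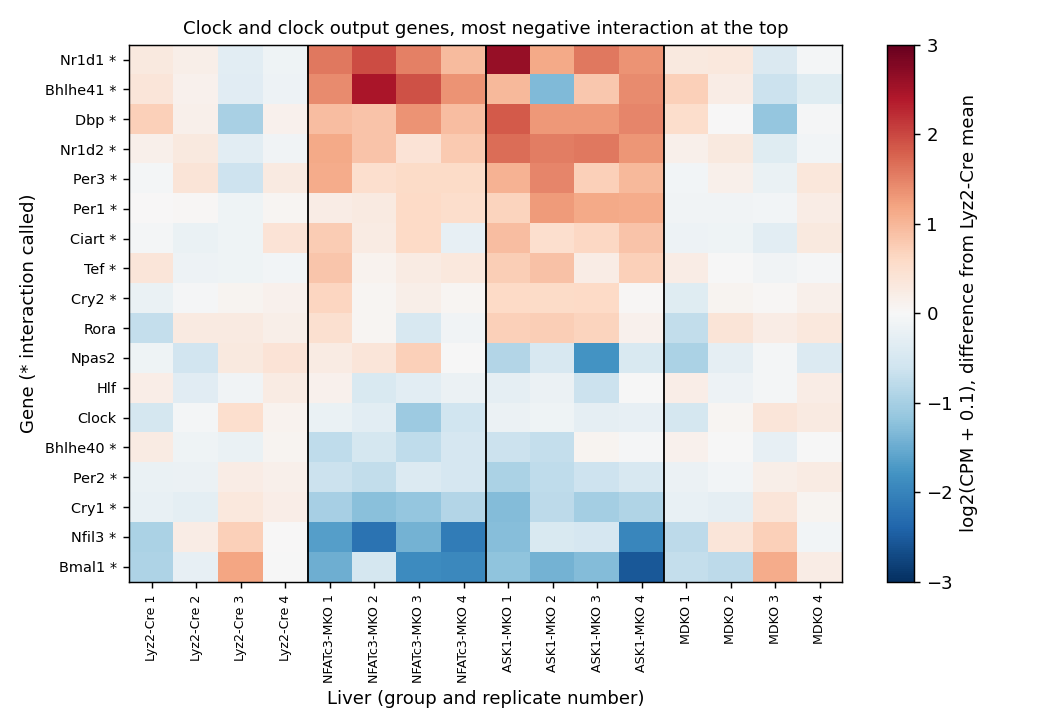
Clock and clock output genes (rows, 18 of the 19 tested) in the 16 livers (columns), as log2(CPM + 0.1) minus the Lyz2-Cre mean, with called genes starred. The outer blocks (Lyz2-Cre and MDKO) are pale and alike, while both single-knockout blocks are high for Nr1d1, Dbp and Nr1d2 and low for Bmal1, Nfil3 and Cry1.

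Heat shock genes formed the most positive list. Most encode cytosolic chaperones or their partners switched on by HSF1. The list also holds Hsf1 itself, the mitochondrial chaperonin genes Hspd1 and Hspe1, and the cold-inducible RNA-binding protein genes Cirbp and Rbm3. Of 16 genes, 9 were positive and 1 negative, with a median of 1.15, against 8.17% and 8% of all genes. Hspa8, the constitutive HSP70, stood at 3059.6, 1928, 3396 and 2517 CPM in Lyz2-Cre, 1086, 1252, 1476 and 1451 in NFATc3-MKO, 1411, 1411, 1597 and 1821 in ASK1-MKO and 2909, 2048, 3519 and 2300.0 in MDKO livers. Single-knockout livers did not reach the lowest control or double knockout, and the interaction was 1.84 ± 0.27 (edgeR adjusted p = 0.000387). Hspa1b, an inducible HSP70, had a larger interaction of 5.26 ± 1.05 (edgeR adjusted p = 0.00343), from 118, 21.2, 110.2 and 21.4 CPM in Lyz2-Cre, 6.76, 8.25, 6.77 and 17.7 in NFATc3-MKO, 3.40, 12.0, 5.44 and 27.5 in ASK1-MKO and 119, 30.0, 98.0 and 25.4 in MDKO livers. Replicates 1 and 3 were high and replicates 2 and 4 lower in both Lyz2-Cre and MDKO, and ASK1-MKO replicate 4 overlapped the lower ones. Its near-identical neighbour Hspa1a had 4.62 ± 0.85, and reads can be split between these copies. Hsph1 (2.18 ± 0.49), Hsp90aa1 (1.64 ± 0.36) and Dnaja1 (1.25 ± 0.19), which encode chaperones or their partners, were positive as well. Cirbp was the negative member, with means of 7.53, 21.6, 14.1 and 8.37 CPM and -2.24 ± 0.46 (edgeR adjusted p = 0.00355), while Rbm3 was not called.

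Chaperones of the endoplasmic reticulum went the other way. Of 23 genes for the unfolded protein and integrated stress responses, 1 was positive and 7 negative (median -0.68). Over all genes 8.17% were positive and 8% negative. Hspa5, the HSP70 of that compartment, had means of 709.5, 1014, 1133 and 676 CPM in Lyz2-Cre, then NFATc3-MKO, ASK1-MKO and MDKO and an interaction of -1.26 ± 0.35 (edgeR adjusted p = 0.0214). Manf, a secreted stress protein (-1.95 ± 0.41), the disulfide isomerase gene Pdia4 (-1.15 ± 0.25), the sensor Atf6 (-1.23 ± 0.28) and Hsp90b1 (-0.87 ± 0.18) were negative too. Hsp90b1 had groups that did not overlap. The positive member was Chac1, a target of ATF4 that degrades glutathione, at 4.07 ± 1.25, but its call was lost in 13 of 16 left-out fits, at an adjusted p of up to 0.0722 without MDKO replicate 4. Hspa5 overlaps Rabepk on the genome.

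Immediate early genes stood near the background, with 2 positive and 1 negative of 20 (median -0.34). Egr1, a transcription factor induced by growth signals, was positive at 2.23 ± 0.43, with means of 20.0, 10.5, 8.49 and 21.0 CPM. Nr4a1, an orphan nuclear receptor, was negative at -3.53 ± 1.13, and 12 of 16 left-out fits lost its call, with an adjusted p of up to 0.116 without ASK1-MKO replicate 2. The count rose to 5 without NFATc3-MKO replicate 1.

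Histone genes, which package DNA, were led by the linker histones. Of 18 listed, 11 passed the filter on low counts, of which 4 were positive and 1 negative (median 0.90). The shares over all genes were 8.17% and 8%. H1f3, a linker histone, stood at 6.35, 7.86, 6.92 and 13.9 CPM in Lyz2-Cre, 1.48, 3.14, 2.74 and 2.17 in NFATc3-MKO, 0.340, 0.133, 0.476 and 1.42 in ASK1-MKO and 6.66, 9.45, 4.61 and 13.4 in MDKO livers. No single-knockout liver reached the lowest control or MDKO liver, and the interaction was 5.77 ± 0.66 (edgeR adjusted p = 8.94e-05). H1f2 (2.54 ± 0.37, means 169.5, 95.2, 51.6 and 169 CPM) and H1f4 (3.74 ± 0.59, means 2.12, 1.11, 0.258 and 1.84 CPM) followed with the lowest means in ASK1-MKO. H1f0, a linker histone of resting cells, was negative (-1.10 ± 0.21), with no overlap. Most histone transcripts lack a poly-A tail and libraries were made from messenger RNA purified on beads, so these levels cover only what that step retained. Cell cycle genes, by contrast, were near the background, with 2 positive (Mcm4 at 1.19 and Ccnd1 at 0.77) and 1 negative (Ccne1 at -1.22) of 25, or 6 called without Lyz2-Cre replicate 2 and 6 with the pairs as a block.

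Cholesterol synthesis was another strongly positive list. SREBP2 drives these enzymes together when sterols run low. Of 25 genes, 12 were positive and 1 negative, with a median of 0.93, against 8.17% and 8% of all genes. Mvd, the mevalonate pathway decarboxylase, stood at 22.9, 9.22, 14.0 and 12.3 CPM in Lyz2-Cre, 12.4, 11.1, 9.54 and 10.5 in NFATc3-MKO, 3.02, 5.13, 4.28 and 4.50 in ASK1-MKO and 23.0, 10.1, 14.7 and 15.7 in MDKO livers. The ASK1-MKO livers had the lowest mean, and the interaction was 2.33 ± 0.37 (edgeR adjusted p = 0.000661). For Hmgcs1 (1.43 ± 0.34) and Mvk (0.99 ± 0.27) NFATc3-MKO livers were close to controls, at means of 309 against 324 and 18.0 against 17.2 CPM, and the interaction came from ASK1-MKO. Pmvk (1.26 ± 0.28) and Dhcr7 (1.15 ± 0.24) were also positive. Over the list the median change from Lyz2-Cre was -0.07 in NFATc3-MKO, -0.77 in ASK1-MKO and 0.04 in MDKO livers. Stard4, a sterol carrier, was the negative member (-0.91 ± 0.29), with its call lost in 14 of 16 left-out fits and an adjusted p of up to 0.081 without Lyz2-Cre replicate 3.

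Bile acid synthesis, which consumes cholesterol, had 2 positive genes of 16 and a median of 0.17. That share lay below the 16.2% called over all genes, and 4 were called without NFATc3-MKO replicate 1. Cyp7a1, its rate-limiting enzyme, stood at 319, 238, 354 and 384 CPM in Lyz2-Cre, 216, 90.5, 77.0 and 154 in NFATc3-MKO, 85.5, 153, 47.9 and 111 in ASK1-MKO and 302, 273, 341 and 444 in MDKO livers. The groups did not overlap, and the interaction was 3.05 ± 0.47 (edgeR adjusted p = 0.000545). Cyp8b1, the sterol 12-alpha-hydroxylase, had 2.73 ± 0.54, with means of 108, 68.1, 25.7 and 107 CPM.

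Fatty acid and triglyceride synthesis held 5 positive and 2 negative genes of 19 (median 0.67), against 8.17% and 8% of all genes. Fasn, the fatty acid synthase gene, had 2.64 ± 0.68 (edgeR adjusted p = 0.0141), with means of 668, 237, 338 and 747 CPM. The desaturase genes Fads1 (1.15 ± 0.18) and Fads2 (1.39 ± 0.24) and the elongase gene Elovl5 (1.03 ± 0.24) were positive, with the lowest means in NFATc3-MKO. Fads2 had 1577, 760.0, 1152 and 1457 CPM. Thrsp, a lipogenic gene, was positive at 1.93 ± 0.62, with its call kept in 4 of 16 left-out fits and lost with the pairs as a block (adjusted p 0.0551). Mlxipl, which encodes the glucose-sensing factor ChREBP, was negative at -1.51 ± 0.21 and did not overlap between the 2 kinds of livers, with means of 17.4, 25.2, 33.7 and 17.1 CPM. Lpin1, a phosphatidate phosphatase, was negative at -1.67 ± 0.48, and its call was lost without Lyz2-Cre replicate 4, ASK1-MKO replicate 4 or MDKO replicate 4 (adjusted p 0.0562, 0.057 and 0.0576).

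Fatty acid oxidation and ketogenesis had 2 positive genes of 22 (median 0.34), below the 16.2% called over all genes. Fgf21, a hormone secreted by stressed or fasting liver, had 3.06 ± 0.92 with means of 76.6, 24.4, 28.3 and 75.3 CPM, and its call was lost in 7 of 16 left-out fits, at an adjusted p of up to 0.0775 without Lyz2-Cre replicate 3. Without Lyz2-Cre replicate 3, and without any of 5 other libraries, no gene of this list was called. Oxidative phosphorylation had 0 called of 22 (median 0.27), or 3 without Lyz2-Cre replicate 2 and 2 with the pairs as a block.

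Methionine and one-carbon metabolism, which the diet acts on directly, had 6 positive and 2 negative genes of 25 (median 0.41). Over all genes 8.17% were positive and 8% negative. Bhmt, which remethylates homocysteine with betaine, stood at 2937, 2916, 4333 and 4539 CPM in Lyz2-Cre, 3006, 2426, 2886 and 3572 in NFATc3-MKO, 1008, 1151, 590.3 and 1351 in ASK1-MKO and 2528, 3146, 3746 and 4073 in MDKO livers. The ASK1-MKO livers were the low ones, and the interaction was 2.03 ± 0.33 (edgeR adjusted p = 0.000717). Mat1a, the liver form of methionine adenosyltransferase, was lowest instead in NFATc3-MKO, with means of 5118, 2821, 4154 and 4952 CPM and 1.11 ± 0.24 (edgeR adjusted p = 0.00455). Mat2b, which encodes the regulatory subunit of another form of this enzyme, was negative (-1.20 ± 0.17), with no overlap. Dmgdh, of the choline oxidation pathway, and Bhmt2 were positive (1.25 ± 0.23 and 1.17 ± 0.28), and Cbs, the first enzyme of transsulfuration, was negative (-0.85 ± 0.22).

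Glucose metabolism leaned positive. Of 22 genes for glycolysis and gluconeogenesis, 6 were positive and 0 negative (median 0.54). Of 12 for glycogen 4 were positive and 1 negative (median 0.23). The shares over all genes were 8.17% and 8%. Eno1 (0.95 ± 0.22), Pgk1 (0.69 ± 0.17) and Tpi1 (0.73 ± 0.20), of the lower glycolytic steps, were positive. Subunits that target protein phosphatase 1 to glycogen took both directions. Ppp1r3g stood at 2.01, 1.40, 1.96 and 5.00 CPM in Lyz2-Cre, 4.06, 0.530, 4.96 and 14.5 in NFATc3-MKO, 13.4, 51.4, 18.2 and 23.5 in ASK1-MKO and 2.04, 3.03, 2.53 and 5.41 in MDKO livers. ASK1-MKO livers were all high, NFATc3-MKO livers overlapped the controls, and the interaction was -4.24 ± 0.94 (edgeR adjusted p = 0.00624). Ppp1r3b was positive at 2.76 ± 0.46, with means of 275, 85.6, 135 and 284 CPM. Ppp1r3c (1.92 ± 0.54) lost its call without NFATc3-MKO replicate 3 or MDKO replicate 1 (adjusted p 0.052 and 0.0513), and Gys2, the liver glycogen synthase gene (1.13 ± 0.36), kept it in 4 of 16. The glycogen count fell from 5 to 2 without NFATc3-MKO replicate 3 and to 3 without any of 11 other libraries.

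Drug metabolism had 6 positive and 1 negative genes of 23 cytochrome P450 and receptor genes (median 0.50), against 8.17% and 8% of all genes. Ahr, the aryl hydrocarbon receptor gene, had 2.07 ± 0.27 (edgeR adjusted p = 0.00019), with means of 76.1, 40.3, 36.3 and 80.5 CPM and no overlap. Nr1i3, which encodes the receptor CAR, had 1.57 ± 0.26 and was lowest in NFATc3-MKO (means 163, 84.0, 107 and 164 CPM). Cyp2a5 was positive (1.10 ± 0.27) and Cyp2c70, a bile acid hydroxylase gene, negative (-1.03 ± 0.23). Of 24 NRF2 targets and glutathione genes 4 were positive and 0 negative (median 0.18), near the 16.2% called over all genes. They were Nfe2l2 itself (0.86 ± 0.17), Gstm2 (0.75 ± 0.21), Gsta2 (0.91 ± 0.28) and Hmox1 (1.15 ± 0.38). The calls of Gsta2 and Hmox1 were kept in 5 and 5 of 16 left-out fits, and the list's count ran from 2, for example without Lyz2-Cre replicate 3, to 7 without NFATc3-MKO replicate 3.

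Sex-biased and growth hormone-dependent genes had 9 positive and 4 negative of 31 (median 0.15), against 8.17% and 8% of all genes. Here the scale decided the sign for some. Cyp3a41a (chr5:145694049-145720136), a female-biased cytochrome P450 gene, stood at 26.9, 136, 20.5 and 25.0 CPM in Lyz2-Cre, 89.0, 118, 231 and 242 in NFATc3-MKO, 0.529, 0.10, 0.374 and 0.277 in ASK1-MKO and 17.7, 168, 22.7 and 14.4 in MDKO livers. The ASK1-MKO livers were close to 0, and replicate 2 was far above the rest both in Lyz2-Cre and in MDKO. Its log2 interaction was 5.74 ± 1.33 (edgeR adjusted p = 0.00882), or 4.04 with an adjusted p of 0.13 by limma's voom. On the linear scale it was -62.5 CPM, with group means of 52.1, 170.0, 0.320 and 55.7 CPM. Reads of this gene can be split with near-identical Cyp3a genes. Its neighbour Cyp3a44 (4.43 ± 0.56) was low in ASK1-MKO alone, with means of 221, 231, 9.47 and 212 CPM.

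The Sult2a sulfotransferases, which sulfate steroids and bile acids, had opposed single changes. Sult2a5 stood at 0.483, 1.19, 0.515 and 0.928 CPM in Lyz2-Cre, 2.29, 3.10, 5.47 and 3.67 in NFATc3-MKO, 0, 0, 0 and 0 in ASK1-MKO and 0.370, 1.10, 0.576 and 0.666 in MDKO livers. The NFATc3-MKO livers were above all others. With ASK1-MKO at 0 in every liver, the fitted interaction of 4.88 depends on the prior count of the fit and is no measure of size (edgeR adjusted p = 0.0106), and in CPM the interaction was -2.18. Sult2a3, called at 3.22 ± 0.99 in 7 of 16 left-out fits, was -27.4 on the CPM scale, from means of 2.29, 32.6, 0.0168 and 2.94 CPM. Sult2a2 (2.33 ± 0.80, adjusted p = 0.0569 by edgeR, 0.0263 by DESeq2 and 0.0454 with the pairs as a block) and Sult2a1 (0.70 ± 0.72) were not called by edgeR with all 16 livers and were -27.3 and -1.70 in CPM. Among all 2153 called genes, the CPM scale turned the sign of 5 positive ones, Cyp3a41a, Sult2a3, Sult2a5, the acetyltransferase gene Nat8 and the histone gene H4c8, and of 0 negative ones. Nat8 and H4c8 were -4.43 and -0.054 in CPM, and their calls were kept in 8 and 7 of 16 left-out fits.

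Other genes of this list kept one sign on both scales. Bcl6, a repressor of female-biased genes, had 2.73 ± 0.43 (edgeR adjusted p = 0.000592), with means of 10.7, 4.95, 3.71 and 11.4 CPM. Cyp2b13, a female-biased gene, had 3.13 ± 0.68, with means of 20.6, 11.7, 4.33 and 21.4 CPM. Mup3, which encodes a male-biased urinary protein, was negative at -1.63 ± 0.28, with means of 132, 139, 403 and 138 CPM, and was high in ASK1-MKO. Elovl3, a male-biased elongase gene, was negative at -2.85 ± 0.75 from levels near 1 CPM. It overlaps Pitx3. Cyp17a1, a steroid hydroxylase gene, was low in NFATc3-MKO, with means of 16.7, 2.15, 25.2 and 11.6 CPM and 1.84 ± 0.45 (edgeR adjusted p = 0.0109).

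Where the single changes were large and opposed, their sum could be small, so that the interaction of a gene far from control in both single knockouts was not called. Scd1 and Slco1a1 were chosen as examples after their values were seen. Scd1, the main liver desaturase gene, had means of 349, 102, 1117 and 323 CPM in Lyz2-Cre, then NFATc3-MKO, ASK1-MKO and MDKO. It changed by -1.78 ± 0.36 in NFATc3-MKO and by 1.68 ± 0.35 in ASK1-MKO (edgeR adjusted p = 0.00818 and 0.00806), and its interaction was -0.016 ± 0.49 (edgeR adjusted p = 0.988), or -547 in CPM. Slco1a1, an organic anion transporter gene, had means of 17.6, 2.25, 77.0 and 17.4 CPM. It changed by -2.94 ± 0.52 and 2.13 ± 0.47, with an interaction of 0.79 ± 0.68 (edgeR adjusted p = 0.467) that was -44.2 in CPM. It was called without NFATc3-MKO replicate 1, at 1.82 (adjusted p 0.0354). Neither value shows additivity, since their SEs allow deviations in both directions.

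Fibrosis genes had the lowest median of the pathway lists, yet few calls. Of 33 genes tested, 0 were positive and 2 negative, against 8.17% and 8% of all genes. The median was -1.03. Lox, which crosslinks collagen, had -2.96 ± 0.95, from means of 0.747, 5.41, 0.652 and 0.601 CPM, and kept its call in 3 of 16 left-out fits. The count depended on single libraries: it was 17 negative genes without NFATc3-MKO replicate 1 and 11 without Lyz2-Cre replicate 2, with 0 positive in both, and 1 without any of 10 other libraries. With the pairs as a block 4 genes were called. Without NFATc3-MKO replicate 1 the 17 included the collagen genes Col1a1 (-2.62, edgeR adjusted p = 0.0218), Col1a2 (-2.04, adjusted p = 0.0227) and Col5a1 (-1.54, adjusted p = 0.0102), and the smooth muscle genes Acta2 (-1.33, adjusted p = 0.0191) and Tagln (-1.46, adjusted p = 0.00733). Col1a1 stood at 3.70, 24.7, 6.31 and 8.51 CPM in Lyz2-Cre, 4.57, 81.1, 37.8 and 47.7 in NFATc3-MKO, 10.3, 13.5, 5.06 and 18.1 in ASK1-MKO and 12.9, 7.61, 10.5 and 8.91 in MDKO livers, and with all 16 livers its interaction was -2.22 ± 0.92 (edgeR adjusted p = 0.116; 0.0107 by limma's voom). In this gene, NFATc3-MKO replicates 2 to 4 were high and replicate 1 was among the other groups.

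TGF-beta and BMP genes had 4 positive and 2 negative of 26 (median -0.06), against 8.17% and 8% of all genes. Without Lyz2-Cre replicate 4 the count was 3. Smad9, a BMP-responsive SMAD, was the largest, with means of 9.78, 20.3, 39.0 and 10.3 CPM and -2.97 ± 0.45 (edgeR adjusted p = 0.000469). Smad4 (-0.69 ± 0.19) lost its call without Lyz2-Cre replicate 3 (adjusted p 0.0505), and Id2, an inhibitor of helix-loop-helix factors (1.02 ± 0.29), without Lyz2-Cre replicate 4 (adjusted p 0.0525). Inhbe, which encodes a hepatocyte activin subunit, was positive at 1.02 ± 0.26.

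With all 16 livers, inflammatory lists held no more than the background share of called genes, 16.2%. Cytokines and chemokines had 0 of 27 (median -0.22), and up to 2 when a library was left out or with the pairs as a block. Interferon genes had 1 positive and 1 negative of 25, which were Stat2 (1.01 ± 0.14, no overlap), a signal transducer that overlaps Apof, and Iigp1, an interferon-induced GTPase gene (-1.17 ± 0.26). Acute phase and complement genes had 3 positive and 1 negative of 26. Socs3, the feedback inhibitor of STAT3, was the negative one, with means of 3.52, 7.48, 7.86 and 4.07 CPM and -2.02 ± 0.38 (edgeR adjusted p = 0.00201), and C3 was positive at 0.77 ± 0.20. C6 (0.77 ± 0.21) and Cfb (0.43 ± 0.14) kept their calls in 15 and 2 of 16 left-out fits, and the list had 2 called without MDKO replicate 2. Nlrc5, the activator of MHC class I genes, was the 1 called gene of 16 for antigen presentation, at -1.31 ± 0.22 with no overlap, and 7 were negative without NFATc3-MKO replicate 1. Lysosome genes had Npc1, a cholesterol exporter (-0.87 ± 0.16), and Tfeb, the lysosomal transcription factor gene (0.85 ± 0.20), of 24.

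Markers of the cells a liver holds were read for the same contrast. In whole-liver RNA, fewer cells of a type and less RNA per cell cannot be told apart. Marker counts here and in the next paragraph compare with 8.17% positive and 8% negative over all genes. Hepatocyte markers summed to 119900 to 156100 CPM in Lyz2-Cre, 85920 to 132500 in NFATc3-MKO, 130700 to 149300 in ASK1-MKO and 140500 to 147400 in MDKO livers, and 1 of 16 was called, or 2 without Lyz2-Cre replicate 2, NFATc3-MKO replicate 1 or MDKO replicate 1. Kupffer cell markers summed to 489 to 686, 399.7 to 521, 410.1 to 559 and 426 to 835 CPM in the same order, with 3 of 11 positive and a median of 1.07. Clec4f, a lectin of Kupffer cells, stood at 57.2, 94.4, 107 and 78.1 CPM in Lyz2-Cre, 52.3, 24.1, 32.3 and 43.4 in NFATc3-MKO, 63.2, 77.5, 71.1 and 49.9 in ASK1-MKO and 41.0, 122, 89.7 and 125 in MDKO livers, and MDKO replicate 1 was far below the other MDKO livers. Its interaction was 1.67 ± 0.42 (edgeR adjusted p = 0.0132), and that of Cd163, the haemoglobin scavenger receptor, 2.42 ± 0.62 (edgeR adjusted p = 0.0139). The positive count was 2 without MDKO replicate 2, 4 without NFATc3-MKO replicate 3 and 5 without Lyz2-Cre replicate 1. Without MDKO replicate 1 it was 8 of 11, with Timd4 and Vsig4 among them. Over all 16 livers those genes had 1.48 ± 0.58 and 1.05 ± 0.37 (edgeR adjusted p = 0.0937 and 0.0636; Vsig4 0.0125 with the pairs as a block).

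Markers of recruited cells were high in some NFATc3-MKO livers. Those of monocyte-derived and lipid-associated macrophages summed to 218 to 567 CPM in Lyz2-Cre, 321 to 1532 in NFATc3-MKO, 186 to 306 in ASK1-MKO and 251 to 369 in MDKO livers, and 0 of 12 was called (median -1.03), or 2 negative without NFATc3-MKO replicate 1, Lyz2-Cre replicate 2 or MDKO replicate 1 and 1 without ASK1-MKO replicate 1. Spp1, the osteopontin gene, had -1.80 ± 0.64 (edgeR adjusted p = 0.0652; 0.00521 by voom). Neutrophil markers summed to 4.34 to 14.3, 8.89 to 47.5, 3.48 to 5.22 and 3.38 to 10.8 CPM in the same order, with 0 of 5 tested called and 3, 0, 2 and 2 of the 9 markers at 0 in a whole group. S100a8, a defining one, had -1.53 ± 0.95 (edgeR adjusted p = 0.299; 0.0311 with the pairs as a block). B and plasma cell markers had 1 negative of 6, Igkc (-1.78 ± 0.52), called in 9 of 16 left-out fits, and 3 were negative without NFATc3-MKO replicate 1 and 2 without Lyz2-Cre replicate 1, ASK1-MKO replicate 1 or MDKO replicate 1. T and NK, dendritic, cholangiocyte and pan-macrophage markers had 0 called. Without MDKO replicate 1, 2 cholangiocyte markers were negative and 1 pan-macrophage marker positive, and 1 cholangiocyte marker was negative without Lyz2-Cre replicate 2, NFATc3-MKO replicate 1 or ASK1-MKO replicate 1. Endothelial markers had 3 positive of 11 (median 0.51), Gpr182 (1.17 ± 0.25), Fcgr2b (0.93 ± 0.25) and Cdh5 (1.11 ± 0.34), the last kept in 5 of 16 left-out fits, and 5 were positive without NFATc3-MKO replicate 1. Single members were positive among stellate cell, mesothelial and erythroid markers, which were Hhip (0.99 ± 0.33, kept in 3 of 16), Lrrn4 (2.03 ± 0.66, kept in 3 of 16) and Alas2 (0.75 ± 0.19). The 12 stellate cell and myofibroblast markers had a median of -0.34, and 4 were negative beside 1 positive without NFATc3-MKO replicate 1 and again without Lyz2-Cre replicate 2. With the pairs as a block, 2 hepatocyte, 6 Kupffer cell, 1 monocyte-derived macrophage, 2 neutrophil and 2 B and plasma cell markers were called. Hhip and Lrrn4 were then not called (adjusted p 0.0592 and 0.0521). The part of these cells in the fibrosis and immune values was not tested. Skeletal muscle markers summed to at most 0.139 CPM.

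**Figure D5:**
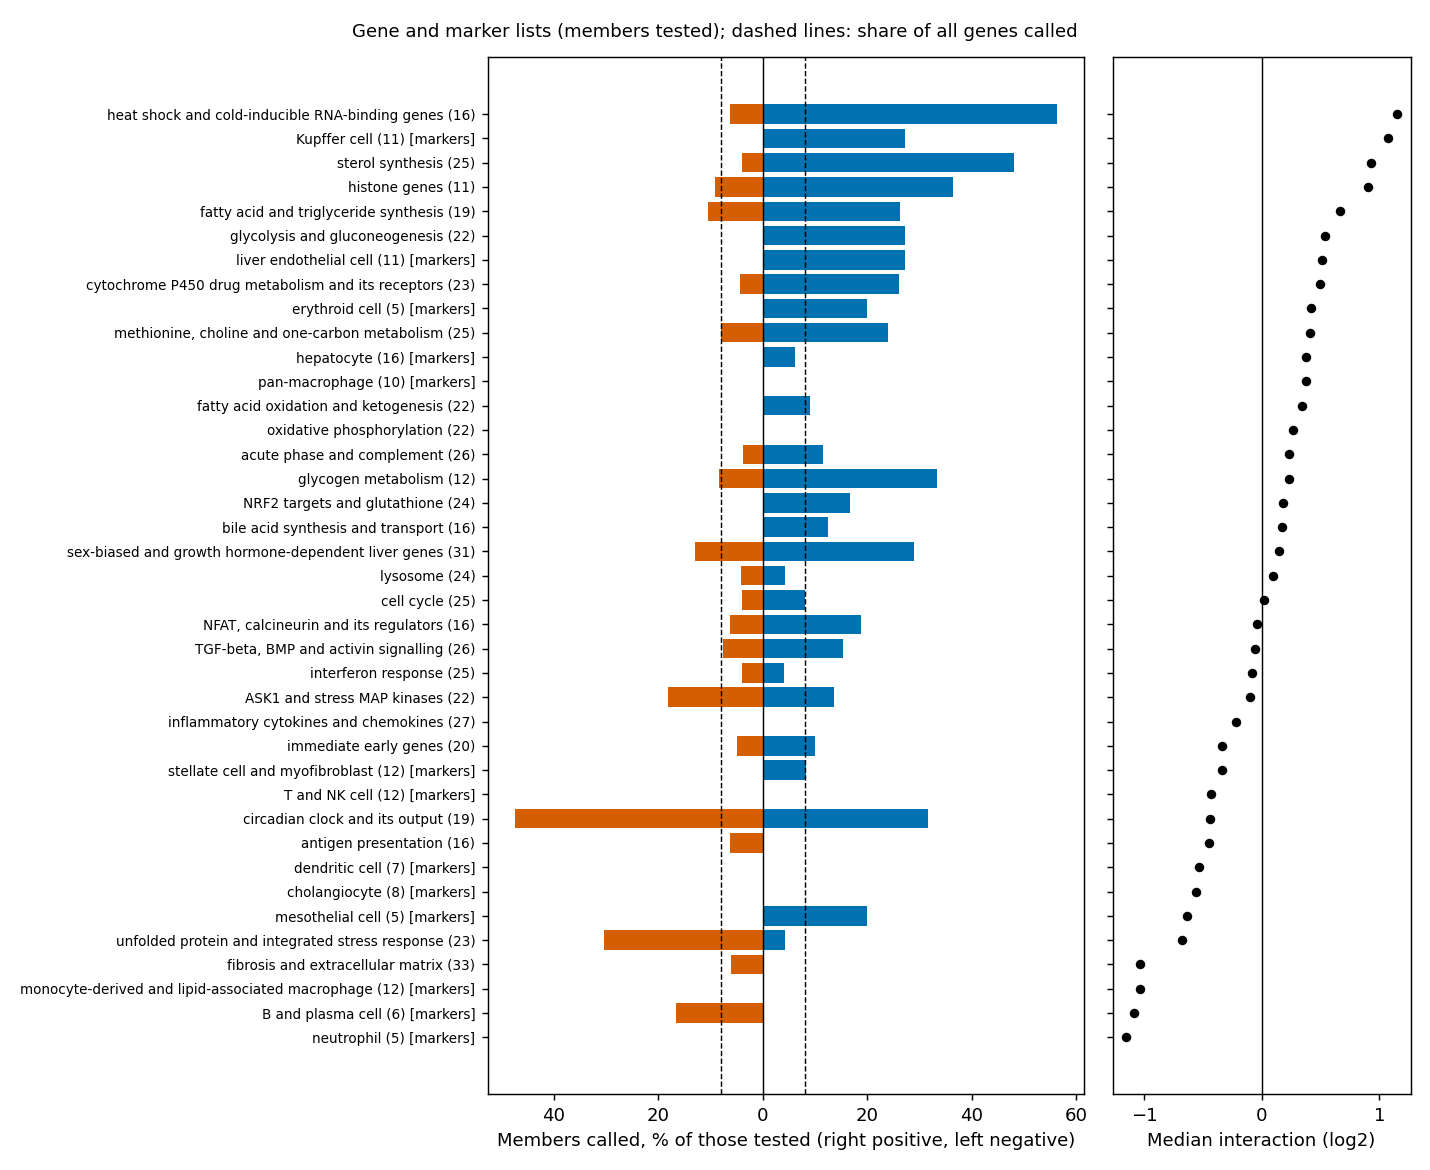
Share of tested members called positive (blue, to the right) or negative (orange, to the left) for each gene and marker list, with the number tested, beside the list's median interaction (log2). Dashed lines mark 8.17% and 8%, the shares over all genes; clock genes reach the highest negative share and heat shock genes the highest positive one.

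The remaining genes named by size had roles outside these lists. Slc34a2, a sodium-phosphate cotransporter gene, had the largest positive interaction among the genes called in all 16 left-out fits that averaged 1 CPM or more in their highest group, predicted Gm and Rik genes aside, at 6.29 ± 0.79 (edgeR adjusted p = 0.000139). It stood at 2.65, 3.27, 4.58 and 5.52 CPM in Lyz2-Cre, 0.419, 1.14, 1.18 and 2.67 in NFATc3-MKO, 0.0378, 0.0333, 0.204 and 0.474 in ASK1-MKO and 3.98, 3.44, 4.49 and 7.83 in MDKO livers. The ASK1-MKO livers were lowest, and 1 NFATc3-MKO liver reached the lowest control. Zfp454, a zinc finger gene (3.35 ± 0.61), Pdxp, the pyridoxal phosphatase gene (3.31 ± 0.61), and Lingo4 (3.27 ± 0.44) followed at means of 1.10, 2.02 and 2.61 CPM in Lyz2-Cre. Pkp1, a desmosomal plakophilin gene, had 2.78 ± 0.29 with no overlap.

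Among negative genes, Tcp11l2 stood at 7.36, 6.54, 4.35 and 5.11 CPM in Lyz2-Cre, 14.9, 12.1, 12.9 and 12.9 in NFATc3-MKO, 28.6, 21.8, 22.5 and 13.5 in ASK1-MKO and 6.85, 7.16, 4.03 and 5.45 in MDKO livers. Single knockouts were high without overlap, and its interaction of -3.03 ± 0.31 shared the smallest adjusted p of all genes (5.96e-05, edgeR) with Nr1d2, Pkp1, Angptl4, Oga and Tbc1d15. Angptl4, which inhibits lipoprotein lipase, stood at 62.6, 58.5, 55.8 and 55.8 CPM in Lyz2-Cre, 128, 74.5, 151 and 112 in NFATc3-MKO, 128, 146, 118 and 132 in ASK1-MKO and 56.3, 61.3, 52.3 and 56.3 in MDKO livers. Its single knockouts were all high, and the interaction was -2.21 ± 0.22. Oga, which removes O-GlcNAc from proteins (-2.46 ± 0.25, means 26.3, 55.7, 65.2 and 25.0 CPM), and Tbc1d15, a GTPase-activating protein gene (-1.96 ± 0.21, means 56.7, 103, 118 and 55.1 CPM), had the same form.

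Fbxo21, an F-box gene (-2.73 ± 0.36, means 34.5, 98.5, 83.8 and 36.1 CPM), and Maff, a small MAF transcription factor gene (-2.73 ± 0.30, means 5.99, 11.2, 20.3 and 5.69 CPM), also had groups that did not overlap. Fbf1 (-3.91 ± 0.87, means 2.93, 13.4, 10.4 and 3.11 CPM) had an adjusted p of 0.00663 by edgeR and 0.0529 by voom. Wsb1, a ubiquitin ligase adaptor gene, had -2.99 ± 0.53, with the highest mean in ASK1-MKO (28.8 ± 16.8 CPM against 6.15 ± 2.27 in Lyz2-Cre and 7.31 ± 2.20 in MDKO). Rfx4 (-3.32 ± 0.67), Bik, a BCL2-family gene that promotes apoptosis (-2.89 ± 0.60), and Fmn2, a formin gene (-2.79 ± 0.52), were called at control means of 0.802, 0.564 and 0.388 CPM.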

How the data were processed

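Messenger RNA was sequenced from 16 livers in 4 groups of 4. Per the labels, libraries were strand-marked with dUTP, and per the submitters' processing notes HISAT2 and the mm10 build were used for alignment. The authors deposited expected counts (estimated counts) for 17752 gene symbols, of which 85.42% of values equalled their rounded value as written. What program counted the reads, with which annotation and whether by strand, is not given in the sources used here. Of the libraries, 15 held between 20601168 and 30834547 counts and MDKO replicate 3 held 8912117, so low genes are least precise there.

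The values were rounded to whole numbers, and filterByExpr of edgeR (version 4.0.16, R 4.3.3) kept 13309 genes. Scaling used TMM factors (0.875 to 1.203), and the robust quasi-likelihood F test was run with 1 mean per group and Benjamini-Hochberg adjustment over all genes. The common biological coefficient of variation was 0.208. An SE is the log2 value divided by the square root of F. The script was tested on simulated data. Alternatives were DESeq2 (1.42.0), limma's voom (3.58.1), other filters and thresholds, replicate blocks, the linear CPM scale and leaving out each library.

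Pairing by replicate number was checked by correlating deviations from the group means. It was 0.53, 0.51, 0.26 and 0.24 for Lyz2-Cre and MDKO livers 1 to 4. Each of the other 5 pairs of groups had at least 1 number at or under 0.1. Single values there could still be high. Lyz2-Cre and NFATc3-MKO replicate 2 had 0.56, above every Lyz2-Cre and MDKO value, and NFATc3-MKO and MDKO replicate 2 had 0.28. The main fit, which gave the SEs, p-values and calls unless another fit is named, did not model this pairing. A blocked fit for the Lyz2-Cre and MDKO pairs was added after the data were seen.

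The contrast, the gene lists and the marker lists were chosen with earlier results of these data known. The genes named are Nfatc3 and Map3k5, the 12 most positive and 12 most negative genes called in the fit of all livers and in all 16 left-out fits, averaging 1 CPM or more in the highest group (no symbols starting with Gm and a digit or ending in Rik), up to 4 called members of each list by smallest p, up to 10 called genes in which MDKO also differed from Lyz2-Cre (none did), and the 6 called genes with the smallest p. Other genes were added to describe lists after their values were seen. Gene positions and promoter windows are from RefSeq (GRCm38.p6), in which 16980 of the 17752 symbols were matched. The 12 libraries of cultured macrophages were not used here. Of the genes examined one by one, 15 overlap another protein-coding gene. Results of some genes that the rule names are not reported here.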

Additional observations from a re-analysis of the deposited data

Results flagged for a closer look

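The interaction is itself a difference of one knockout's effect between 2 backgrounds, and it was called in 2153 genes.

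Single livers that stood apart from the other 3 of their group were sought in the 4 groups for the 146 genes examined one by one, which made 584 groups of 4. The gap to the nearest liver as a share of the range exceeded Dixon's critical value in 44 of them. Chance gives about 1 in 20 groups. All values are in CPM. In Lyz2-Cre replicate 1 they were Zfp454 at 1.97, Rfx4 at 1.61 and Tef at 143. In Lyz2-Cre replicate 2 they were Cyp3a41a at 136, Lox at 1.66, Smad4 at 30.4, Socs3 at 5.35, Cabin1 at 13.9, Oga at 37.8 and S100a8 at 3.74. In Lyz2-Cre replicate 4 they were Ppp1r3g at 5.00, Manf at 48.1, Pdia4 at 102 and Jun at 51.8. In NFATc3-MKO replicate 1 they were Fbxo21 at 143, Gys2 at 307, Ccne1 at 7.02, C6 at 19.4, Txnip at 325, Hhip at 14.0, Slco1a1 at 5.70, Per3 at 18.3 and Cry2 at 28.8. In NFATc3-MKO replicate 3 they were Nfatc3 at 19.6, Dnaja1 at 234, Id2 at 233, Sult2a1 at 7.29 and Dbp at 67.5. In NFATc3-MKO replicate 4 they were Hspa1b at 17.7, Fads2 at 985, Ppp1r3b at 131 and Thrsp at 258. In ASK1-MKO replicate 2 they were Fbf1 at 26.9 and Alas2 at 12.3. In ASK1-MKO replicate 3 they were Smad4 at 43.4 and Map2k7 at 26.4. In ASK1-MKO replicate 4 it was Cry2 at 18.8. In MDKO replicate 1 they were H1f4 at 0.694 and Spp1 at 161. In MDKO replicate 2 they were Cyp3a41a at 168, Dnaja1 at 376 and S100a8 at 2.41. In MDKO replicate 3 it was Pkp1 at 3.46. In MDKO replicate 4 it was Per1 at 23.1. Cyp3a41a and S100a8 had the same replicate number apart in Lyz2-Cre and in MDKO.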

How the results depend on the processing

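The count of 2153 called genes (1088 positive, 1065 negative) stayed within 1.5 times under DESeq2's size factors (2136) and test (2584), no filter (1800), only genes averaging 1 CPM or more (2160), a threshold of 0.1 (3125) and both blocked fits. It was 3753 (1953 and 1800) with limma's voom and quality weights and 1006 (552 and 454) at a change of at least 2-fold. With the replicate block over all 4 groups it was 2530 (1292 and 1238), of which 2094 were shared. With the Lyz2-Cre and MDKO pairs alone as blocks it was 2464, of which 2086 were shared. The fit with those pairs takes what a pair shares out of the spread, so it does not check whether the pairs are independent. The replicate blocks changed no other call among the genes named than those given here and beside the results. With 1 library left out it ran from 1512 (without Lyz2-Cre replicate 3) to 2291 (without NFATc3-MKO replicate 3), the positive count from 771 to 1124 and the negative count from 741 to 1167.

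On the linear CPM scale the interaction turned negative for Cyp3a41a (-62.5), Slco1a1 (-44.2), Sult2a3 (-27.4), Sult2a2 (-27.3), Nat8 (-4.43), Sult2a5 (-2.18), Sult2a1 (-1.70) and H4c8 (-0.054). The log2 interaction of Scd1, near 0, was 0.041 with the replicate block and ran from -0.26 to 0.30 with 1 library left out. Of 135 called genes examined one by one, 25 lost their call in at least 1 left-out fit. The replicate block over all groups lost the calls of Igkc, Lrrn4, H4c8, Cry2 and Chac1 (adjusted p 0.0571, 0.0598, 0.0524, 0.058 and 0.065). The causes were not tested. Depth limits MDKO replicate 3, with 8912117 counts, and genes near 1 CPM.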

Other observations

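Genes that varied widely within a group showed how closely the same-numbered Lyz2-Cre and MDKO livers matched. These genes were chosen after their values were seen, and the match was not tested beyond the correlations given above. Hspa1b stood at 118, 21.2, 110.2 and 21.4 CPM in Lyz2-Cre replicates 1 to 4 and at 119, 30.0, 98.0 and 25.4 in MDKO replicates 1 to 4. H1f3 stood at 6.35, 7.86, 6.92 and 13.9 and at 6.66, 9.45, 4.61 and 13.4 CPM, and Bmal1 at 1.17, 1.95, 5.38 and 2.32 and at 1.39, 1.31, 5.18 and 2.75 CPM. In these genes the order of the livers was the same or nearly so in both groups. Col1a1 was not matched in this way. It stood at 3.70, 24.7, 6.31 and 8.51 CPM in Lyz2-Cre and at 12.9, 7.61, 10.5 and 8.91 in MDKO livers, so that replicate 2 was the highest control and the lowest MDKO liver.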
